A study of Homo sapiens with 12 samples.

Results

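The glycolysis, pentose phosphate and glucose uptake genes studied here are 37 genes that carry glucose into the cell and convert it to pyruvate, lactate, ribose phosphates or, in reverse, glucose precursors. They were chosen by name, as the rows of the gene list whose symbol was one of the 37, and each symbol matched 1 row of 58278. Every one of the 37 passed the filter on low counts, as did 24342 genes in all, and all comparisons were fitted on those 24342 genes.

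Glucose enters tubular cells by transporters, is trapped by hexokinase as glucose-6-phosphate and is split by aldolase after the committed step at phosphofructokinase. Pyruvate then becomes lactate through lactate dehydrogenase or enters the mitochondrion through pyruvate dehydrogenase, which its kinases (PDKs) switch off. The pentose phosphate pathway leaves at glucose-6-phosphate and supplies NADPH and ribose. Proximal tubules in the kidney burn mainly fatty acids and make glucose, whereas cultured tubular lines use glycolysis.

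HK2 cells, a human proximal tubular line immortalized with papillomavirus genes, were used in all 6 groups, with 2 biological replicates each and no other genotype. Ctrl cells were untreated, and TN cells received TNF-α at 5 ng/mL for 3 h. The other groups received the same TNF-α and a short-chain fatty acid (SCFA) for 24 h, which was 15 mM propionate before (PRTN) or after (TNPR) TNF-α, or 3 mM butyrate before (BUTN) or after (TNBU) it. The shared treatment text of the labels names thapsigargin and JQ1 instead, while the text on the groups names the treatments used here. No group with TNF-α and a further 24 h but no SCFA was analysed here, so the SCFA and the added time in culture cannot be told apart in a contrast with TN. The doses of propionate and butyrate differ, so their contrasts compare the treatments as given. The cell line carries the symbol of 1 of the genes, so HK2 cells below means the line and hexokinase 2 the gene HK2.

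The libraries held 27269986 to 33851130 expected counts, and the 37 genes took 2.72 to 2.98% of them. Mitochondrial genes took 5.86% in the first TNBU replicate to 9.46% in the first TNPR replicate, and replicates differed most in TNPR and TNBU, with median absolute log2 differences over the 37 genes of 0.0876 and 0.0772 against 0.0275 to 0.0624 in the other groups. Of 18 tubular or epithelial markers, 14 had a mean of at least 1 CPM (expected counts scaled to library size with TMM factors), with VIM, KRT8, KRT18 and PAX8 abundant, while the proximal tubule markers LRP2, HNF4A and SLC34A1 stayed under 1 CPM in every group. None of 7 lymphocyte and 4 endothelial markers had a mean of 1 CPM, and their sums were at most 0.512 and 3.64 CPM. Of 3 red cell markers HBB and HBA2 were at 0, and HBA1 brought the sum to 0.466 to 0.755 CPM in Ctrl and TN and 5.91 to 7.85 CPM in the SCFA groups. Of 10 macrophage markers only CD68 and CD14 had a mean of at least 1 CPM, and the list summed to 29.7 to 54.3 CPM. Of 5 fibroblast markers the sum was 43.3 to 52.8 CPM in Ctrl and TN and 154 to 212 CPM in the SCFA groups, nearly all of it COL1A1, with COL1A2 at 0 in Ctrl and TN, and its part in the results was not tested.

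TNF-α alone gave no call among the glucose metabolism genes. In TN against Ctrl none of the 37 passed a fold change over 1.5 with an adjusted p under 0.05 (limma-voom, Benjamini-Hochberg over all tested genes), against 0.764% of all tested genes that rose and 0.534% that fell. At an unadjusted p under 0.05 there were 6 members, beside 4140 of the 24342 tested genes. Both edgeR and DESeq2 also called 0 members. The median log2 fold change of the 37 was -0.03, and 13 of them had a positive value. Hexokinase 2, which phosphorylates glucose and is bound to mitochondria in many cultured lines, was at 108 and 123 CPM in Ctrl and 149 and 149 in TN. Its libraries did not overlap, and the difference was 1.29-fold (log2 0.36, SE 0.07, adjusted p = 0.0171), under the fold required. PDK2, an inhibitory kinase of pyruvate dehydrogenase, was at 16.2 and 15.4 CPM in Ctrl and 9.71 and 12.6 CPM in TN (log2 -0.51, SE 0.11, adjusted p = 0.0276). Without the second TN replicate that value was -0.70 with an adjusted p of 0.0159, past both thresholds.

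In the cells given propionate or butyrate, part of the 37 genes differed strongly from TN and most did not. In bulk libraries fewer cells with a transcript and less of it per cell cannot be told apart, here and below. In PRTN and TNPR alike 7 genes rose and 7 fell, against 6 and 6 for BUTN and 7 and 6 for TNBU. These counts are 18.9% up and 18.9% down in PRTN and TNPR, 16.2% and 16.2% in BUTN, and 18.9% and 16.2% in TNBU. Over all tested genes the share that rose was 23.9% in PRTN, 24.9% in TNPR, 23.1% in BUTN and 25% in TNBU, and the share that fell was 16.7%, 16.9%, 14.8% and 16.5%. The median log2 fold change of the 37 was -0.18, -0.23, -0.15 and -0.22 in PRTN, BUTN, TNPR and TNBU, beside 0.09, 0.08, 0.12 and 0.09 over all tested genes, whereas tested genes with a mean over 10 CPM had -0.11, -0.13, -0.12 and -0.14.

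With library size alone as scaling in place of TMM factors, the median over all tested genes moved to 0.24 in PRTN, 0.29 in TNPR, 0.23 in BUTN and 0.29 in TNBU. All-gene calls then split into 6785 up and 3127 down in PRTN (5824 and 4057 with TMM factors), 7232 and 3132 in TNPR (6067 and 4117), 6579 and 2656 in BUTN (5620 and 3613) and 7329 and 2849 in TNBU (6094 and 4027). The members then split into 7 up and 5 down, 9 and 4, 7 and 4, and 8 and 4 in the same order of groups. Small negative differences of GAPDH, PGK1, PFKFB3, PDHA1, PGLS, HIF1A and hexokinase 2 turned positive in 1 to 4 of the groups under that scaling, and none of these was a call.

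The genes that rose in all 4 SCFA groups were SLC2A3, ALDOC, PDK2, PDK3 and PC. FBP1 was also called up in all 4, and the counts of risen genes include it. However, it was near the limit of detection and passed the filter on low counts only through the SCFA libraries. In TNPR it lay under the floor of 3 counts, so a rise in all 4 is not established for FBP1. The genes that fell in all 4 were GPI, PFKL, PFKFB2, TPI1, ENO3 and PCK2. ALDOA, ENO1 and SLC2A1 were called in 1 to 3 of the groups, and 22 genes in none. Over all tested genes 18.4% rose and 11.9% fell in all 4 groups. All 4 contrasts share the TN libraries, so a gene called in several of them is not independent evidence for each.

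**Figure D1:**
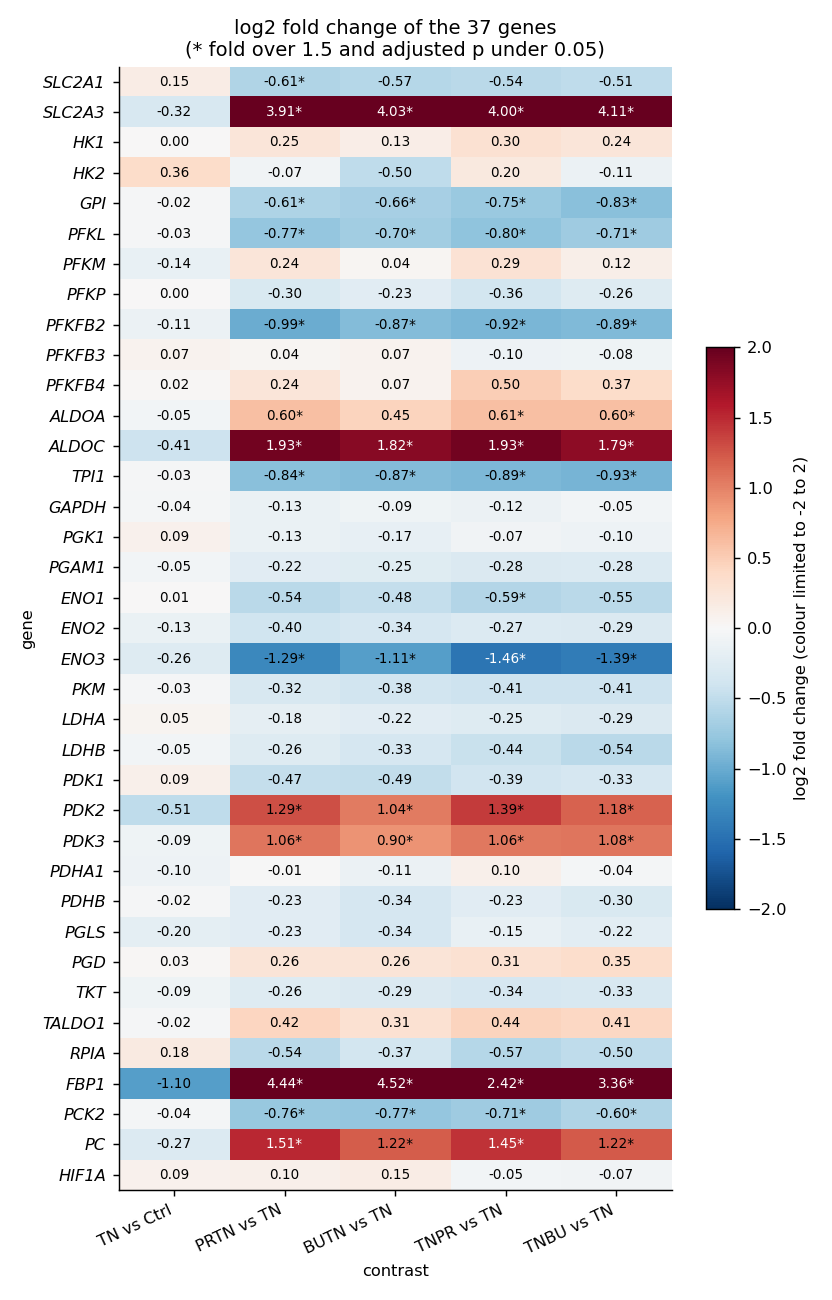
Log2 fold change of the 37 genes, in pathway order from top to bottom, for TNF-α against untreated cells and for the 4 SCFA groups against TN (colour and printed value, with an asterisk for a call). The first column holds no call, and SLC2A3 stands out with log2 values of 3.91 to 4.11, while the larger fitted values of FBP1 in PRTN and BUTN (4.44 and 4.52) rest on 0 counts in TN and depend on the prior count.

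Against Ctrl in place of TN, 12 of the 37 were called in PRTN, 11 in TNPR, 11 in BUTN and 13 in TNBU, beside 39.4%, 40.4%, 36.9% and 40% of all tested genes in either direction. These contrasts share the SCFA libraries with those against TN.

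At the first step the transporters diverged. SLC2A3 encodes GLUT3, a high-affinity glucose transporter best known from neurons, and SLC2A1 encodes GLUT1, the widespread basal transporter. SLC2A3 (ENSG00000059804.15, chr12:7919230-8019007, minus strand, GRCh38) was at 114 and 132 CPM in Ctrl, 99.1 and 97.1 in TN, then 1488 and 1469 in PRTN, 1483 and 1667 in TNPR, 1581 and 1614 in BUTN and 1681 and 1709 in TNBU. All SCFA libraries lay far above every Ctrl and TN library, with no overlap, and the Ctrl libraries were slightly above TN. The gene rose 15.1-fold in PRTN, 16.02-fold in TNPR, 16.3-fold in BUTN and 17.3-fold in TNBU over TN (log2 SE 0.07, adjusted p = 1.41e-11 to 2.55e-11).

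SLC2A1 was at 531 and 556 CPM in Ctrl, 564 and 649 in TN, then 394 and 401 in PRTN, 421 and 412 in TNPR, 413 and 402 in BUTN and 446 and 402 in TNBU. Every SCFA library lay below every Ctrl and TN library. The log2 difference from TN was -0.61 in PRTN, -0.54 in TNPR, -0.57 in BUTN and -0.51 in TNBU (SE 0.07, adjusted p = 8.68e-06 to 3.76e-05), and only in PRTN, at 1.52-fold, was it past the fold required. That call ended without the second TN replicate, at a log2 value of -0.53, and with library size alone as scaling, at -0.45.

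Set per kilobase of transcript, SLC2A3 made up 16.7% ± 1.01 (SD, n = 2) of the 2 transporters together in Ctrl and 12.6% ± 1.25 in TN. In the SCFA groups its share was 76.7% ± 0.399 in PRTN, 76.9% ± 1.73 in TNPR, 77.6% ± 0.5597 in BUTN and 77.95% ± 1.46 in TNBU. SLC2A3 thus passed from the minor to the major transporter transcript of the pair. SLC2A14, a near-identical copy of SLC2A3 with which reads can be exchanged, held 1.26 to 2.09% of the counts of both genes. Summing both, an alternative chosen after the data were seen, left the log2 values of SLC2A3 between 3.91 and 4.11.

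**Figure D2:**
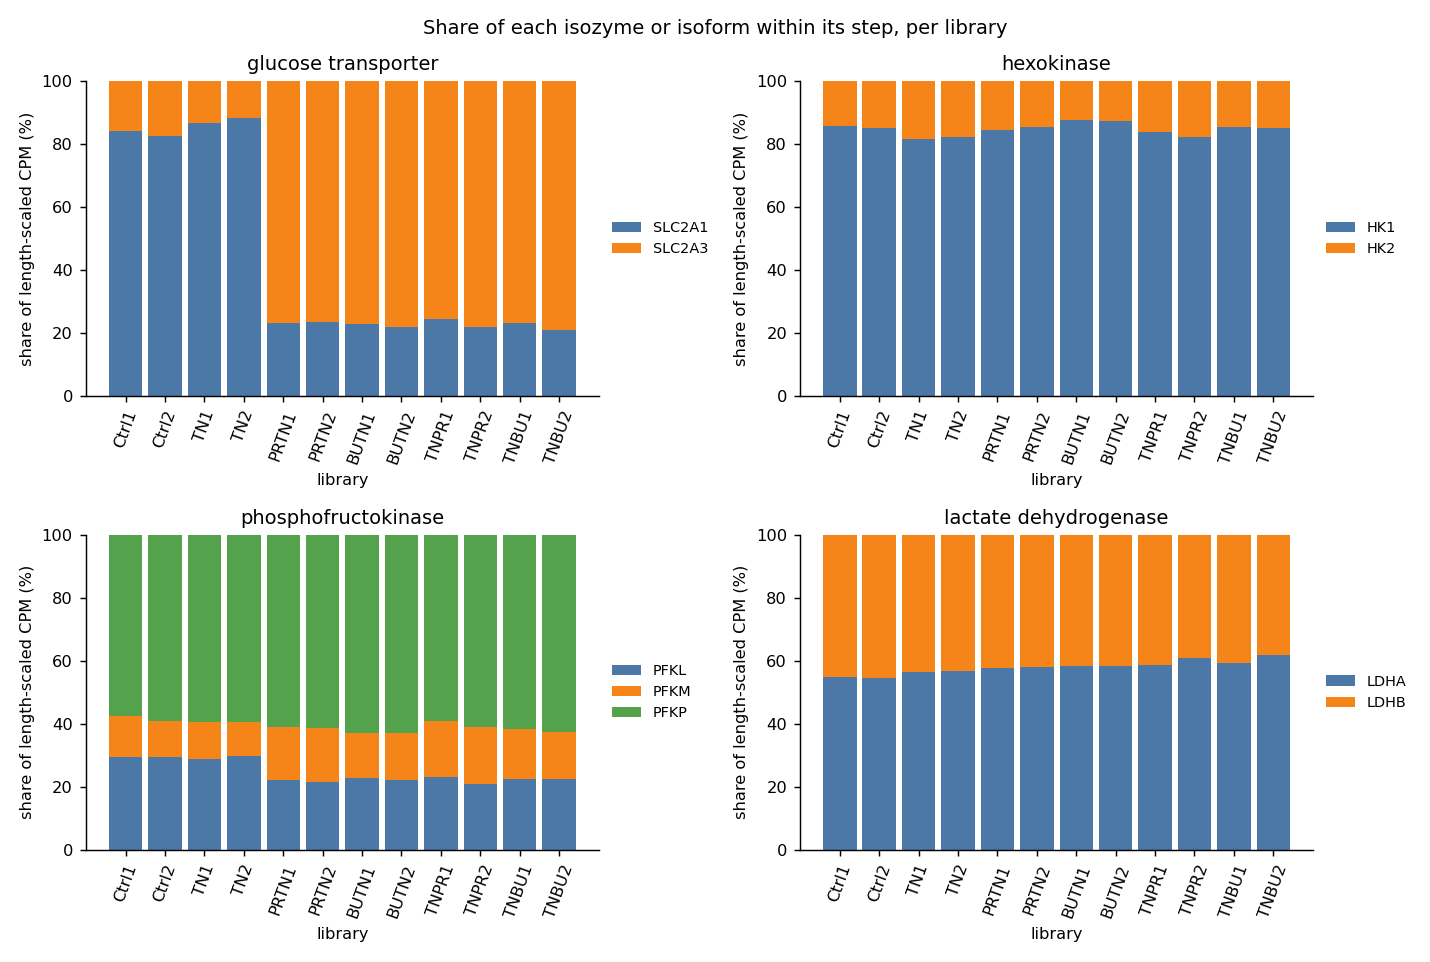
Share of each isozyme in its step as a percent of CPM per kilobase of transcript, for the 12 libraries. The transporter panel changes most, with SLC2A3 at 11.7 to 17.4% in the Ctrl and TN libraries and 75.7 to 79.0% in the SCFA libraries.

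Hexokinases, which phosphorylate glucose, were not called in any contrast with TN. HK1, the constitutive hexokinase, was at 432 CPM in TN and had log2 differences of 0.13 to 0.30. Hexokinase 2 was at 146 and 138 CPM in PRTN, 162 and 180.2 in TNPR, 103 and 106 in BUTN and 139 and 136 in TNBU, beside 149 and 149 CPM in TN. The BUTN libraries were the lowest of these and the TNPR libraries the highest, and the log2 difference from TN was -0.07 in PRTN, 0.20 in TNPR, -0.50 in BUTN and -0.11 in TNBU. BUTN differed from TN with an adjusted p of 7.84e-05 but by 1.42-fold. Its share of both hexokinases per kilobase was 18.1% ± 0.601 in TN and 12.4% ± 0.214 in BUTN. With the length of all exons in place of the MANE Select transcript it was 28.6% in TN and 20.5% in BUTN, so the level of this share depends on the length used.

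GPI, PFKL, PFKFB2 and TPI1, which act in the upper part of glycolysis, were among the 6 members that fell in all SCFA groups. Of all tested genes 11.9% fell in all of them. GPI, which converts glucose-6-phosphate to fructose-6-phosphate, was at 601 and 610.2 CPM in Ctrl, 571 and 623 in TN, then 388 and 393 in PRTN, 362 and 349 in TNPR, 385 and 371 in BUTN and 339.8 and 330.2 in TNBU. No SCFA library overlapped Ctrl or TN, and GPI was lower by 1.53-fold in PRTN, 1.68-fold in TNPR, 1.58-fold in BUTN and 1.78-fold in TNBU (log2 SE 0.05, adjusted p = 7.10e-08 to 7.99e-07). PFKL, the liver-type phosphofructokinase, was at 272 and 277 CPM in Ctrl, 251 and 290.3 in TN, then 159.8 and 157 in PRTN, 163 and 148 in TNPR, 171 and 161 in BUTN and 164 and 166 in TNBU. The SCFA libraries again formed a lower set with no overlap, and PFKL was lower by 1.71-fold in PRTN, 1.74-fold in TNPR, 1.63-fold in BUTN and 1.64-fold in TNBU (log2 SE 0.07, adjusted p = 1.20e-06 to 4.45e-06). With library size alone as scaling, the call on GPI was lost in PRTN, TNPR and BUTN (log2 -0.46, -0.57 and -0.50) and that on PFKL in BUTN and TNBU (-0.55 and -0.52), and GPI in PRTN was also lost without the second TN replicate (-0.58).

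The other phosphofructokinases were not called. PFKP, the platelet type and the most abundant of the 3 per kilobase, had log2 differences of -0.36 to -0.23, and PFKM, the muscle type, of 0.04 to 0.29. The PFKL share of the 3 per kilobase was 29.3% ± 0.673 in TN and 21.8% ± 0.357, 22.5% ± 0.484, 21.95% ± 1.57 and 22.5% ± 0.0514 in PRTN, BUTN, TNPR and TNBU.

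PFKFB2, PFKFB3 and PFKFB4 make or remove fructose-2,6-bisphosphate, the allosteric activator of phosphofructokinase. PFKFB2, the heart-type enzyme, was at 25.4 and 29.6 CPM in Ctrl, 26.5 and 24.2 in TN, then 12.5 and 12.99 in PRTN, 13.9 and 12.9 in TNPR, 14.1 and 13.7 in BUTN and 15.6 and 12.05 in TNBU. The highest SCFA library was below the lowest of TN and Ctrl, and the gene was lower by 1.98-fold in PRTN, 1.89-fold in TNPR, 1.82-fold in BUTN and 1.85-fold in TNBU (log2 SE 0.12, adjusted p = 1.29e-05 to 3.97e-05). PFKFB3, the inducible enzyme with high kinase activity, stayed between 257.5 and 323 CPM in the 12 libraries, with log2 differences of -0.10 to 0.07. PFKFB4 had log2 differences of 0.24 in PRTN, 0.50 in TNPR, 0.07 in BUTN and 0.37 in TNBU, none of which reached the fold required.

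Aldolase, which splits fructose-1,6-bisphosphate, was the glycolytic step with rises. ALDOC, the brain-type isozyme, was at 1.24 and 1.06 CPM in Ctrl, 0.898 and 0.815 in TN, then 4.02 and 2.69 in PRTN, 3.24 and 3.37 in TNPR, 3.38 and 2.79 in BUTN and 2.39 and 3.72 in TNBU. The lowest SCFA library, at 2.39 CPM, was above the highest Ctrl library, and the gene rose 3.804-fold in PRTN, 3.801-fold in TNPR, 3.52-fold in BUTN and 3.45-fold in TNBU over TN (log2 SE 0.33 to 0.34, adjusted p = 3.08e-04 to 6.62e-04). At these levels ALDOC held at most 0.165% of both aldolases per kilobase in any library.

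ALDOA, the main aldolase, was at 1709 and 1701 CPM in Ctrl, 1570.2 and 1725 in TN, then 2478 and 2503 in PRTN, 2432 and 2582 in TNPR, 2279 and 2220.4 in BUTN and 2325 and 2671 in TNBU. All SCFA libraries exceeded all Ctrl and TN libraries. The difference was 1.51-fold in PRTN, 1.52-fold in TNPR, 1.37-fold in BUTN and 1.51-fold in TNBU (log2 SE 0.07, adjusted p = 5.00e-06 to 7.90e-05), so it rose in PRTN, TNPR and TNBU, by little more than the fold required. Every one of these calls was lost when 1 library was left out, all 3 without the first TN replicate (log2 0.50 to 0.52), in PRTN also without either PRTN replicate (0.57 and 0.56), in TNPR without its second replicate (0.51) and in TNBU without its second replicate (0.47).

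TPI1, triosephosphate isomerase, fell with little spread between replicates. It was at 1648 and 1642 CPM in Ctrl, 1579.9 and 1653 in TN, then 899.6 and 912 in PRTN, 869 and 874 in TNPR, 894 and 875 in BUTN and 845 and 853 in TNBU. Replicates of each SCFA group nearly coincided and all lay far below Ctrl and TN. TPI1 was lower by 1.78-fold in PRTN, 1.85-fold in TNPR, 1.83-fold in BUTN and 1.903-fold in TNBU (log2 SE 0.04, adjusted p = 4.91e-09 to 9.30e-09).

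GAPDH, the next enzyme and the reference gene of the RT-PCR in the study, ranged from 5641 to 6714 CPM over the 12 libraries, a ratio of 1.19 between highest and lowest. It was at 6651 and 6714 CPM in Ctrl, 6288 and 6694 in TN, then 5886 and 5956 in PRTN, 5641 and 6362 in TNPR, 6094 and 6117 in BUTN and 5884 and 6698 in TNBU. PRTN and BUTN lay below both TN libraries, while TNPR and TNBU overlapped TN. The log2 difference from TN was -0.13 in PRTN, -0.12 in TNPR, -0.09 in BUTN and -0.05 in TNBU (adjusted p = 0.102 to 0.565), and its direction turned to 0.02 to 0.15 with library size alone as scaling. Per kilobase GAPDH ranked first of the 37 in every library. PGK1 and PGAM1, which follow it, had log2 differences of -0.17 to -0.07 and -0.28 to -0.22.

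**Figure D3:**
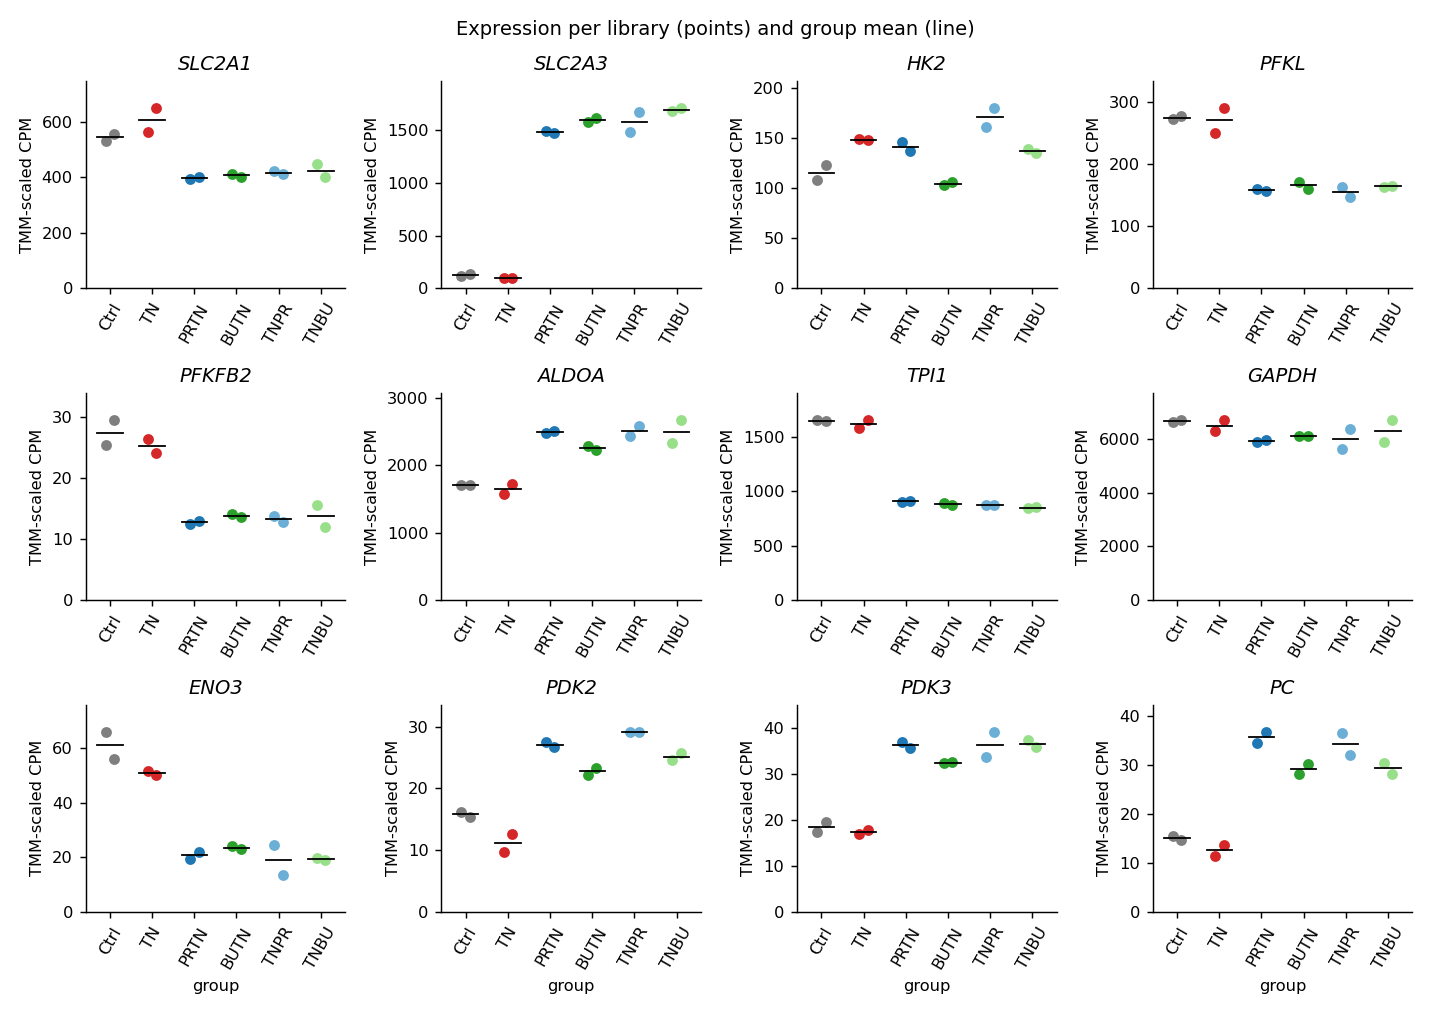
Expression of 12 of the genes in TMM-scaled CPM, with 1 point per library, a line at the mean of the 2 replicates and axes from 0. SLC2A3, PDK2, PDK3 and PC lie higher in the 4 SCFA groups, SLC2A1, PFKL, PFKFB2, TPI1 and ENO3 lower, and GAPDH stays within a ratio of 1.19.

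Enolase makes phosphoenolpyruvate, and of its 3 isozymes ENO3 was called in every SCFA group. ENO3, the muscle type, was at 66.1 and 56.1 CPM in Ctrl, 51.6 and 50.1 in TN, then 19.6 and 22.1 in PRTN, 24.7 and 13.7 in TNPR, 23.99 and 23.2 in BUTN and 19.6 and 19.1 in TNBU. Both TNPR replicates differed from each other more than any other pair, yet the higher of them was below TN. ENO3 fell by 2.45-fold in PRTN, 2.74-fold in TNPR, 2.16-fold in BUTN and 2.63-fold in TNBU (log2 SE 0.18, adjusted p = 1.94e-05 to 1.60e-04).

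ENO1, the main enolase and second of the 37 per kilobase in TN, had log2 differences of -0.54 in PRTN, -0.59 in TNPR, -0.48 in BUTN and -0.55 in TNBU (SE 0.05, adjusted p = 3.45e-07 to 2.25e-06). In TNPR it just passed the fold required, and that call was lost with edgeR and DESeq2 (-0.58 each), with library size alone as scaling (-0.41), and without the second TN or the first TNPR replicate (-0.57 each). ENO2, the neuronal type, had log2 differences of -0.40 to -0.27. ENO1 kept 89.2 to 90.5% of the 3 enolases per kilobase in every group, so the makeup of the step was nearly the same.

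PKM, pyruvate kinase, and both subunits of lactate dehydrogenase were lower without passing the fold required. PKM had log2 differences of -0.41 to -0.32, LDHA of -0.29 to -0.18 and LDHB of -0.54 to -0.26, all with adjusted p from 2.14e-06 to 0.00607. LDHA, the form that favours lactate, made up 56.5% ± 0.159 of both per kilobase in TN and 57.8% ± 0.286, 58.3% ± 0.006102, 59.6% ± 1.58 and 60.6% ± 1.77 in PRTN, BUTN, TNPR and TNBU. Processed pseudogenes of LDHA held 1.23 to 1.54% of its counts and their own, and those of GAPDH 0.0937 to 0.118%.

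**Figure D4:**
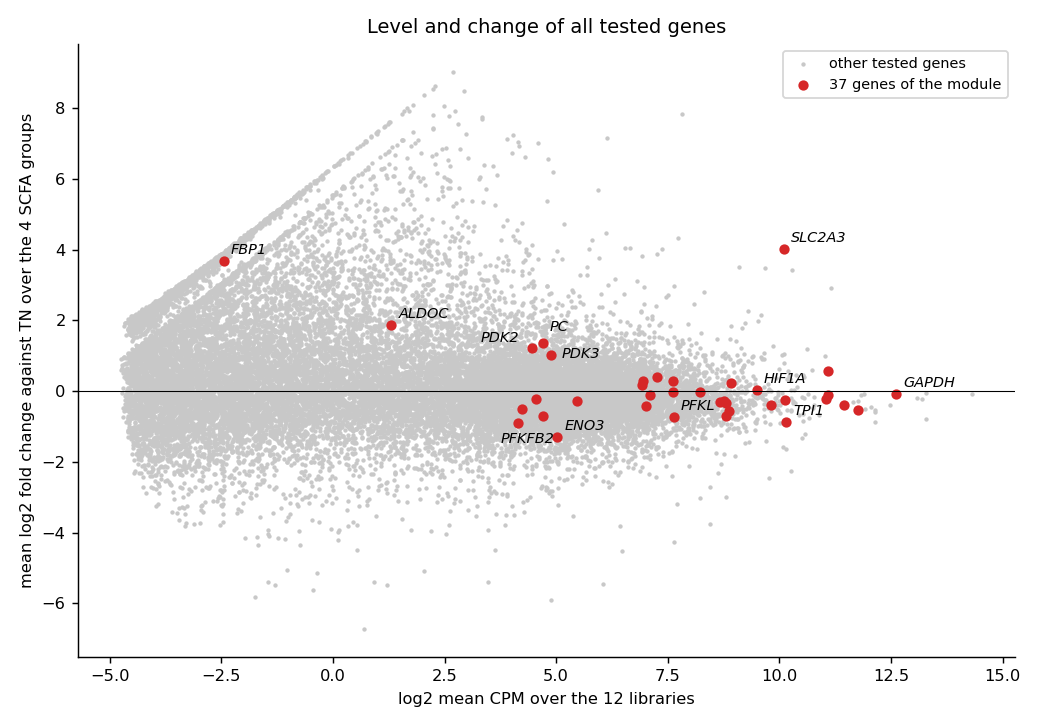
Mean log2 fold change against TN over the 4 SCFA groups against log2 mean CPM, for every tested gene (grey) and the 37 genes (red). The module sits mostly to the right, with 26 of 37 genes over 100 CPM, and SLC2A3 stands highest of the 37 while FBP1 lies at the edge of detection.

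At the entry to the mitochondrion the kinases of pyruvate dehydrogenase differed from each other. PDK2 was at 16.2 and 15.4 CPM in Ctrl, 9.71 and 12.6 in TN, then 27.5 and 26.7 in PRTN, 29.1 and 29.2 in TNPR, 22.2 and 23.3 in BUTN and 24.6 and 25.7 in TNBU. Every SCFA library exceeded every Ctrl library, and the gene rose 2.44-fold in PRTN, 2.62-fold in TNPR, 2.05-fold in BUTN and 2.27-fold in TNBU over TN (log2 SE 0.10 to 0.11, adjusted p = 2.12e-07 to 4.03e-06). PDK3, an isoform known from testis, was at 17.4 CPM in TN and rose 2.09-fold in PRTN, 2.09-fold in TNPR, 1.87-fold in BUTN and 2.11-fold in TNBU (log2 SE 0.09, adjusted p = 7.71e-07 to 4.36e-06). PDK1, known as a hypoxia target, was at 158 CPM in TN and had log2 differences of -0.47 in PRTN, -0.39 in TNPR, -0.49 in BUTN and -0.33 in TNBU, which missed the fold required.

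Of the complex these kinases act on, PDHA1 and PDHB, the subunits of its first catalytic component, had log2 differences of -0.11 to 0.10 and -0.34 to -0.23, with no call. PDHX, a structural subunit outside the 37, fell in all 4 SCFA groups, with log2 differences of -0.85 to -0.66. PDP1, a phosphatase that reverses the action of the kinases, rose by log2 1.46 to 1.62 in all 4, and PDP2, its other form, had -0.01 to 0.26 with no call. DLAT and DLD, the other catalytic components, had -0.27 to -0.16 and -0.24 to -0.10, also with no call. PDP1, PDP2, DLAT and DLD were chosen for mention after their values were seen.

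The oxidative and non-oxidative enzymes of the pentose phosphate pathway held no call among the 5 measured here. PGD, an NADPH-producing enzyme, had log2 differences of 0.26 to 0.35 and TALDO1, transaldolase, of 0.31 to 0.44. TKT, transketolase, had -0.34 to -0.26, PGLS, the lactonase, -0.34 to -0.15, and RPIA, ribose-5-phosphate isomerase, -0.57 to -0.37. TALDO1 and TKT, which exchange carbon units in the same branch, thus had opposite signs.

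Genes of gluconeogenesis and anaplerosis split. PC, pyruvate carboxylase, which turns pyruvate into oxaloacetate in the mitochondrion, was at 15.4 and 14.7 CPM in Ctrl, 11.4 and 13.7 in TN, then 34.5 and 36.8 in PRTN, 36.5 and 32.1 in TNPR, 28.2 and 30.2 in BUTN and 30.4 and 28.2 in TNBU. The lowest SCFA library was well above the highest Ctrl library, and PC rose 2.84-fold in PRTN, 2.73-fold in TNPR, 2.32-fold in BUTN and 2.33-fold in TNBU over TN (log2 SE 0.11, adjusted p = 1.29e-07 to 1.10e-06). PCK2, the mitochondrial phosphoenolpyruvate carboxykinase, was at 34.8 CPM in TN and 20.4 to 22.9 CPM in the SCFA groups, and was lower by 1.697-fold in PRTN, 1.63-fold in TNPR, 1.71-fold in BUTN and 1.52-fold in TNBU (log2 SE 0.07, adjusted p = 1.58e-06 to 1.38e-05). Its call was lost in TNPR and TNBU with library size alone as scaling (log2 -0.53 and -0.40).

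FBP1, the fructose-1,6-bisphosphatase of gluconeogenic tissues, was close to the limit of detection, at 0 counts in both TN libraries. It passed the filter on low counts only through the SCFA libraries, so its calls are not independent of that filter. It was at 0 and 0.0717 CPM in Ctrl, 0 and 0 in TN, then 0.434 and 0.335 in PRTN, 0.178 and 0.03198 in TNPR, 0.375 and 0.433 in BUTN and 0.175 and 0.166 in TNBU. Taking 3 counts per library as the floor (0.1097 CPM in TN), it was at least 3.50-fold higher in PRTN, 3.69-fold in BUTN and 1.55-fold in TNBU, and TNPR lay under the floor. Its call in TNPR was lost with DESeq2 (adjusted p = 0.0654), without either TN replicate (0.14 and 0.149) and without the first TNPR replicate (0.33).

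HIF1A, the oxygen-regulated factor that drives many glycolytic genes under hypoxia through its protein, was at 683 and 659 CPM in Ctrl, 731 and 701 in TN, then 768 and 769 in PRTN, 702 and 679.9 in TNPR, 792 and 795 in BUTN and 749 and 622 in TNBU. The SCFA libraries spread on both sides of TN, and the log2 difference from TN was 0.10 in PRTN, -0.05 in TNPR, 0.15 in BUTN and -0.07 in TNBU (adjusted p = 0.0917 to 0.565).

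The promoters of these genes were read for short motifs because several glycolytic genes are textbook targets of hypoxia factors. Of the 37 genes, 35 had RefSeq windows (GRCh38.p14, 250 bases before each listed start, 63 windows), and SLC2A3 and PFKFB2 had no entry. ACGTG, a core of the hypoxia response element, was found on either strand in 33.3% of the member windows and 18.5% of all 35116 windows. GCGTG was found in 33.3% and 32.2%, the E-box CACGTG (which contains ACGTG) in 12.7% and 6.34%, and the GC box GGGCGG in 65.1% and 42.6%. With several starts per gene counted once, ACGTG was in 18 of 35 member genes (51.4%) and 21.7% of 27305 genes, and the members had more windows per gene.

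Among genes called up in all SCFA groups, ACGTG was in a window of 4 of 5 with an entry (ALDOC, PC, PDK2 and PDK3). Among those called down, it was in 2 of 5 (GPI and TPI1). The 5 called up include FBP1, whose calls are limited as stated above. GCGTG was in 4 of 5 (ALDOC, FBP1, PDK2 and PDK3) and 3 of 5 (ENO3, PFKL and TPI1), either of these cores in 5 of 5 and 4 of 5, CACGTG in 2 of 5 and 0 of 5, and GGGCGG in 5 of 5 and 3 of 5, so the difference between both sets varied with the motif and was not tested. The windows of a pair from each set are shown so that these counts can be read in the letters, and a match is a description of letters and no more. The pairs do not stand for their sets. ALDOC and PDK2 are the 2 risen genes with CACGTG, and TPI1, a fallen gene not shown, has a window with 1 ACGTG and 1 GCGTG. Capitals mark ACGTG or its reverse complement, and also GCGTG or its own. ALDOC lies at chr17:28576896-28577145, minus strand, PDK2 (1 of its 3 windows, chosen because the others hold no match) at chr17:50095101-50095350, plus strand, GPI at chr19:34364742-34364991, plus strand and PFKL at chr21:44299803-44300052, plus strand. Each window runs from 5′ to 3′ and ends just before the RefSeq start of transcription.
ALDOC: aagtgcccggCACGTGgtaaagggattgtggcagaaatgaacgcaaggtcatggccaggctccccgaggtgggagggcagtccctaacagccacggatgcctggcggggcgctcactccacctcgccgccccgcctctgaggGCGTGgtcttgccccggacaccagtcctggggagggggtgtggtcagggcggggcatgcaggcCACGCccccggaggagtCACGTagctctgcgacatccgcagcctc
PDK2: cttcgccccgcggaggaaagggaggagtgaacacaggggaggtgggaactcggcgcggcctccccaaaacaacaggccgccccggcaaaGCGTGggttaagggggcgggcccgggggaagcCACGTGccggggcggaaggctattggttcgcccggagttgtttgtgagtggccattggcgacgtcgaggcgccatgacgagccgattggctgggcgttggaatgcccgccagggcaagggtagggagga
GPI: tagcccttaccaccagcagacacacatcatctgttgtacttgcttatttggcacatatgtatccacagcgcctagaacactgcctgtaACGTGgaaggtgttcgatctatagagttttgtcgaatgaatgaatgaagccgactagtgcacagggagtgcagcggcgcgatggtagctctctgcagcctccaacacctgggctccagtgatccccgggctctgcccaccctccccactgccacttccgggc
PFKL: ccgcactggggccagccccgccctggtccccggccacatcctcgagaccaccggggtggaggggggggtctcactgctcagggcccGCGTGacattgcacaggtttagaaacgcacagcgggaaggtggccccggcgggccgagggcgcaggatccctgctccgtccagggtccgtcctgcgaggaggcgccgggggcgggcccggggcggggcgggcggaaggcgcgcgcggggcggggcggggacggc

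The ALDOC window holds 3 matches of ACGTG, 2 of them on the opposite strands of 1 CACGTG, and 2 of GCGTG, and the PDK2 window holds 2 of ACGTG, both on the strands of its CACGTG, and 1 of GCGTG. GPI holds 1 ACGTG and PFKL 1 GCGTG and no ACGTG.

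Groups that differ in the order of treatment or in the SCFA were compared directly. Order goes together with the time from TNF-α to harvest, and the SCFA with its dose, so neither was tested alone. None of the 37 was called in TNPR against PRTN, TNBU against BUTN, PRTN against BUTN or TNPR against TNBU, where 0.16%, 0.267%, 0.168% and 0.00822% of all tested genes were called. At an unadjusted p under 0.05 there were 6, 8, 6 and 6 of the 37. Over the 24342 tested genes there were 2729, 3515, 3418 and 2096 at that level. Both edgeR and DESeq2 called 0 members in each contrast. The difference between the orders did not itself differ between propionate and butyrate for any member (0 called, 0 at an unadjusted p under 0.05). Of all tested genes 0% were called and 935 were under that unadjusted p.

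For SLC2A3 the 95% interval of the log2 difference was -0.05 to 0.22 for TNPR against PRTN, -0.05 to 0.22 for TNBU against BUTN, -0.25 to 0.02 for PRTN against BUTN and -0.24 to 0.03 for TNPR against TNBU. These intervals are narrow beside its rise over TN. For ALDOC the interval was -0.37 to 0.65 in TNPR against TNBU, wider because its counts were low.

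In PRTN against BUTN hexokinase 2 had the largest difference of the 37. PRTN exceeded BUTN by a log2 value of 0.44 (SE 0.07, interval 0.28 to 0.59, adjusted p = 0.0282), or 1.35-fold. The adjusted p rose to 0.166 to 0.379 when either PRTN or either BUTN replicate was left out, at log2 values of 0.38 to 0.46. TNPR exceeded TNBU by 0.31 with an adjusted p of 0.299. The PRTN and BUTN libraries did not overlap, nor did those of TNPR and TNBU.

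**Figure D5:**
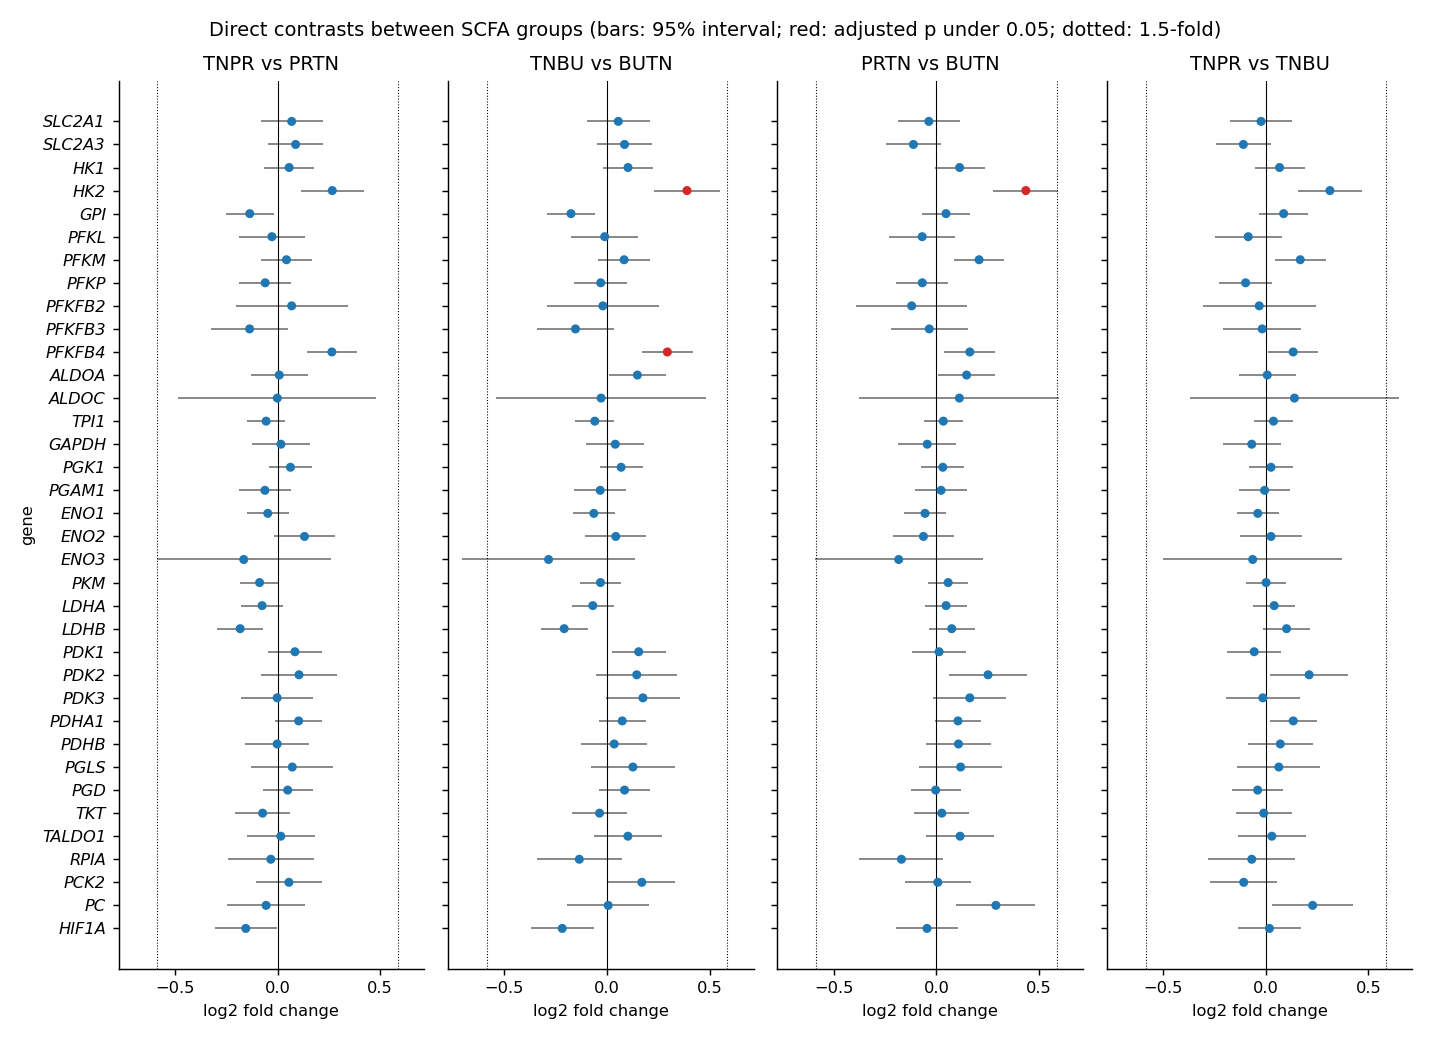
Log2 fold change with its 95% interval for 36 of the genes in the 4 direct contrasts between SCFA groups (FBP1 is left out for its low counts, and dotted lines mark 1.5-fold). Only hexokinase 2 in TNBU against BUTN and PRTN against BUTN, and PFKFB4 in TNBU against BUTN, have an adjusted p under 0.05, and no point lies past 1.5-fold.

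Genes of the same pathways outside the 37 were read from 6 lists chosen by function. Beside the counts of each list, 23.9%, 24.9%, 23.1% and 25% of all tested genes rose in PRTN, TNPR, BUTN and TNBU. The shares that fell were 16.7%, 16.9%, 14.8% and 16.5%. No list was tested as a set. Among other glucose transport genes 13 were tested, of which 7 rose and 2 fell in PRTN, BUTN and TNBU, and 8 rose and 2 fell in TNPR. SLC2A6, a lysosome-associated member of the transporter family, was the only gene of the 6 lists called in TN against Ctrl (log2 0.73). It was at 64.9 and 66.1 CPM in Ctrl, 99.6 and 118 in TN, then 38.7 and 39.1 in PRTN, 35.5 and 28.6 in TNPR, 47.1 and 41.6 in BUTN and 36.5 and 33.3 in TNBU, so the TN libraries were the highest and the SCFA libraries the lowest. SLC2A10 fell (log2 -1.62 to -1.12) and SLC2A14 rose (3.60 to 3.76). SLC2A14 can exchange reads with its near-identical copy SLC2A3, so its rise cannot be told apart from that of SLC2A3. SLC5A10, a sodium-linked sugar transporter, was listed at 0 in both TN libraries and at 0.131 to 0.502 CPM in the SCFA libraries. SLC5A10 was near the floor, and with 0 in TN its calls are not independent of the filter on low counts. The counts of risen transport genes include SLC2A14 and SLC5A10.

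TXNIP, which lowers glucose uptake by promoting internalization of glucose transporters, was chosen for mention after its values were seen. It was at 96.1 and 82.4 CPM in Ctrl, 68.7 and 68.7 in TN, then 766 and 793 in PRTN, 654 and 737 in TNPR, 826 and 881 in BUTN and 775 and 827 in TNBU. It rose by log2 3.34 to 3.63 over TN, beside 3.91 to 4.11 for SLC2A3.

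Of 11 other glycolysis genes tested, 3 rose and 1 fell in each SCFA group (all tested genes: 23.1 to 25% up, 14.8 to 16.9% down). PGM1, phosphoglucomutase, which joins glycogen to glycolysis, was at 194 and 188 CPM in Ctrl, 185 and 195 in TN, then 60.4 and 59.98 in PRTN, 60.3 and 49.7 in TNPR, 61.3 and 59.7 in BUTN and 59.1 and 49.8 in TNBU. It fell by 3.16-fold in PRTN, 3.46-fold in TNPR, 3.14-fold in BUTN and 3.51-fold in TNBU (adjusted p = 7.53e-09 to 1.92e-08), with no overlap. BPGM, which makes 2,3-bisphosphoglycerate, rose by log2 1.49 to 1.62.

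Of 9 other pentose phosphate genes tested, 2 rose in every SCFA group, beside 23.1 to 25% of all tested genes. In PRTN, TNPR and TNBU 3 fell and in BUTN 2, beside 14.8 to 16.9%. PRPS2, which makes the precursor of nucleotides from ribose-5-phosphate, rose by log2 0.66 to 0.75, and RBKS (-0.88 to -0.75) and DERA (-0.67 to -0.64) fell.

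Of 15 other pyruvate and lactate genes tested, 7 rose and 1 fell in each SCFA group (all tested genes: 23.1 to 25% up, 14.8 to 16.9% down). PDK4, the fasting-induced kinase, stood at 0.0359 to 0.0745 CPM in TN and 1.16 to 1.89 CPM in the SCFA libraries. In TN PDK4 lay under the floor of 3 counts, so its calls are not independent of the filter on low counts. LDHD, which oxidizes D-lactate, rose by log2 3.10 to 3.80, and PDHX fell by 1.58-fold in PRTN, 1.78-fold in TNPR, 1.77-fold in BUTN and 1.81-fold in TNBU. Of 6 other gluconeogenesis genes tested, 1 rose and 1 fell in PRTN, TNPR and TNBU, and 2 rose and 1 fell in BUTN. PCK1, the cytosolic carboxykinase, was at 0 in the TN libraries and at 0.0867 to 0.318 CPM in the SCFA libraries, near the floor. Its calls are not independent of the filter on low counts, and the counts of risen gluconeogenesis genes include it. GOT1 fell by 1.52-fold in PRTN, 1.59-fold in TNPR, 1.91-fold in BUTN and 1.97-fold in TNBU.

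Of 11 regulators linked to hypoxia factors or MYC, 4 rose in each SCFA group, beside 23.1 to 25% of all tested genes. In BUTN, TNPR and TNBU 1 fell and in PRTN 0, beside 14.8 to 16.9%. MLXIPL, the glucose-sensing factor ChREBP, stood at 0.112 and 0.251 CPM in TN and 4.13 to 6.30 CPM in the SCFA libraries. HIF3A stood at 0.0372 and 0.0718 CPM in TN, under the floor of 3 counts, and 0.426 to 0.926 CPM in the SCFA libraries. The calls on HIF3A are thus not independent of the filter on low counts. EPAS1, which encodes HIF-2α, rose by log2 1.38 to 1.60, and EGLN3, a prolyl hydroxylase that marks HIF-α for degradation, by 1.73 to 1.90, and both were chosen for mention after their values were seen.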

How the data were processed

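Gene expression of HK2 cells was profiled by RNA-seq with 2 biological replicates for each of the 6 groups, which were read from the library titles. Per the labels, stranded mRNA libraries were aligned to GRCh38 with STAR (2.6.1a, after FastQC 0.11.5). The authors deposited expected counts by gene, estimated with RSEM on GENCODE release 26. The version and strand setting of RSEM are not given in the sources used here. Reads that match several genes are divided between them, so near-identical genes share counts, and antisense overlaps cannot be separated.

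The expected counts entered limma 3.58.1 (voom) in R 4.3.3 unrounded, with TMM factors from edgeR 4.0.16. The filter follows a reading of the study's methods (geometric mean of counts plus 1, less 1, not under 1) and took out 33936 genes. All 12 libraries entered 1 fit with a mean per group, from which 13 contrasts and 1 difference of differences were read. Calls needed 1.5-fold and an adjusted p below 0.05 (Benjamini-Hochberg, 24342 genes). The libraries held 27269986 to 33851130 counts, which gave log2 fold changes a standard error of 0.179 to 0.257 at the median gene, by contrast. Zeros were taken to allow up to 3 counts, a limit for counting error alone. Scripts were tested on simulated data.

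Levels are TMM-scaled CPM, divided by the length of the MANE Select transcript where genes are compared. Positions come from GENCODE release 44 (GRCh38) and promoters from RefSeq (GRCh38.p14), counted from 1. The members, gene lists and tests were chosen with earlier results of these data known. Values per library are given for members called in TN against Ctrl or between SCFA groups, for the 4 largest rises and falls against TN among called members at 1 CPM or more, for GAPDH and HIF1A, and for isozymes of 1 step that went opposite ways. Those of hexokinase 2, PDK2 in TN against Ctrl, GPI, ALDOA and FBP1 were added after their values were seen. Of each other pathway list, up to 2 genes per direction called in all 4 SCFA groups are named. Some genes of these lists are counted but not reported here by name.

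Alternatives were edgeR's quasi-likelihood test and DESeq2 1.42.0 on rounded counts, relative log expression factors, library size alone, other gene filters, other fold thresholds, a fit of only the groups compared, the replicate number as a block, leaving out each library, other lengths and pseudogene counts for isozyme shares, and SLC2A14 summed with SLC2A3.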

Additional observations from a re-analysis of the deposited data

Results flagged for a closer look

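For a pair of genes the groups given butyrate before and after TNF-α differed by a direct test, in a way that depended on single libraries. Hexokinase 2 (HK2) was higher in TNBU, at 139 and 136 CPM, than in BUTN, at 103 and 106 CPM, by a log2 value of 0.39 (SE 0.07, 95% interval 0.23 to 0.55, adjusted p = 0.0354 in limma-voom), and both TNBU libraries exceeded both BUTN libraries. PFKFB4 was higher in TNBU, at 131 and 143 CPM, than in BUTN, at 113 and 111 CPM, by 0.29 (SE 0.06, interval 0.17 to 0.42, adjusted p = 0.0403). Neither reached 1.5-fold. With propionate the same difference was 0.27 for HK2 (adjusted p = 0.189) and 0.26 for PFKFB4 (adjusted p = 0.108), and the difference between the SCFAs was not called for either gene (adjusted p = 1 for both). The difference kept its direction under every alternative run, with adjusted p from 0.000395 to 0.33 for HK2 and from 0.000882 to 0.28 for PFKFB4. For HK2 it was not under 0.05 in the fit of BUTN and TNBU alone (0.185), without either BUTN replicate (0.33 and 0.238) and without the second TNBU replicate (0.0928), and for PFKFB4 also with edgeR (0.0529), in the fit of both groups alone (0.279), without either BUTN replicate (0.28 and 0.272) and without the second TNBU replicate (0.139). TNBU and BUTN also differ in the time from TNF-α to harvest, and its part in the difference was not tested.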

How the results depend on the processing

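No result changed direction past a threshold. Counts of called members differed from those reported mainly with the fold required. With a fold over 2, 6 members rose and 1 fell in PRTN against TN (4467 and 2231 of all tested genes). In BUTN 5 rose and 1 fell (4393 and 1810), and in TNPR 6 and 1 (4715 and 2290). TNBU had 6 and 1 (4775 and 2140). At that fold 6, 4, 5 and 5 members were called against Ctrl in PRTN, BUTN, TNPR and TNBU. All-gene rises against Ctrl were 4149, 4143, 4360 and 4455, and falls 2339, 1868, 2296 and 2132. With no fold threshold, 1 member rose and 1 fell in TN against Ctrl (549 and 305 of all tested genes). Against TN 12 rose and 19 fell in PRTN (7456 and 6273) and 9 and 21 in BUTN (7233 and 6181). In TNPR 13 rose and 18 fell (7701 and 6340), and in TNBU 11 and 18 (7625 and 6339). Called against Ctrl were 33, 29, 31 and 32 members in PRTN, BUTN, TNPR and TNBU. All-gene rises there were 7268, 7032, 7481 and 7363, and falls 6258, 6099, 6233 and 6321. Between SCFA groups 2 members were called in TNBU against BUTN (52 up and 138 down of all tested genes) and 1 in PRTN against BUTN (58 and 82). With library size alone as scaling, 4 rather than 7 members fell in TNPR, and 9 rose. Leaving out 1 library gave 0 to 1 fallen members in TN against Ctrl and 0 to 0 risen, 6 to 7 risen and 5 to 8 fallen in PRTN, 6 to 6 and 6 to 7 in BUTN, 5 to 6 and 7 to 9 in TNPR, 6 to 7 and 6 to 9 in TNBU, and against Ctrl 11 to 12, 10 to 12, 11 to 13 and 11 to 13 called. It gave 0 to 0 in each of the 4 direct contrasts between SCFA groups. A lone remaining library is then assumed to vary like the other groups. All-gene counts were not drawn up for the fits without 1 library, so these member counts have no share beside them. With the replicate number as a block the counts were 7 risen and 7 fallen (PRTN), 7 and 7 (TNPR), 6 and 6 (BUTN) and 7 and 6 (TNBU), as without it, and no call on a member changed. No batch or day is stated for the numbers, and deviations of equally numbered libraries correlated at -0.0791 to 0.240, over 0.1 only for TNPR with TNBU. Of 204 isozyme shares recomputed, 94 moved by over 1 SD, 87 of them with the length of all exons and 7 with pseudogene counts. The cause of these differences was not tested, apart from the thresholds and scaling that define them. Members under 10 CPM (ALDOC and FBP1) are limited by depth.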
